A study of Mus musculus with 2 samples.

Results

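This account covers open chromatin at 10 genes used to recognise dendritic cells, of 21938 protein-coding genes in the mouse annotation, in the adult spleen. The genes are Zbtb46, Zeb2, Flt3, Itgax, Clec9a, Siglech, Clec10a, Cd209a, Clec4a4 and Bst2. They were taken by name and all 10 were found in GENCODE M21. For each, every DNase-seq peak that overlapped the gene body or the 50 kb on either side was collected, with its height and the footprints inside it. A peak overlapping the 1 kb on either side of any transcription start site (TSS) of the gene was a promoter peak. A peak outside the promoters of all protein-coding genes was distal.

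DNase-seq sequences the ends left by DNase I, an enzyme that cuts DNA where it is not packed away, so a peak marks a stretch of accessible DNA. A footprint is a short run of bases within such a stretch that was cut less than its surroundings. The samples were 2 whole spleens from male mice of the strain B6CASTF1/J, hybrids of a C57BL/6J and a CAST/EiJ parent, aged 2 months and with no treatment in the labels. The labels number the spleens separately and call them biological replicates 1 and 2, here animal 1 and animal 2. The donor identifier is the same for both spleens, so counting them as 2 animals rests on these numbers. They form 1 group with no control, so the animals are given side by side, and the spread over n = 2 is that of this pair.

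Dendritic cells take up antigen and present it to T cells. They arise from bone marrow progenitors under Flt3 ligand and fall into conventional type 1 cells, which cross-present antigen from dead cells to CD8 T cells, conventional type 2 cells, which mainly prime CD4 T cells, and plasmacytoid cells, which release type I interferon. Dendritic cells are a small part of the spleen beside B and T lymphocytes. In whole tissue, fewer cells of a type and less accessibility per cell cannot be told apart, and no value below separates them.

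Promoter peaks were present in both animals at 5 of the 10 genes, namely Zbtb46, Zeb2, Flt3, Itgax and Bst2, and in neither animal at 4, the lectin genes Clec9a, Clec10a, Cd209a and Clec4a4. Siglech had one in animal 1 only. The background over all protein-coding genes was 59.8% with such a peak in both animals and 35.8% with none. Counted per animal, 6 of the 10 had one in animal 1, where 61.4% of all genes did, and 5 of the 10 in animal 2, where 62.6% did. The share of the 10 genes is therefore near or below the background. Of the open promoters, all but that of Bst2 stood below the median height of genes with a promoter peak, which was 5.62 in animal 1 and 6.63 in animal 2. Every one of the 10 had some peak in its window in both animals, which 85.0% of all genes had.

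The height is the deposited signal of a peak. Its unit is not given in words, but within each list the heights went up in equal steps, 0.00716 in animal 1 and 0.00679 in animal 2. If a step is 1 cut, the median peak height of each list was 124 and 155 cuts. If heights are also scaled per M cuts, the totals were 139.6 M and 147.3 M. Neither condition is stated with the data. The lists held 79246 and 77231 peaks, with median heights of 0.888 and 1.05, and 211394 and 215907 footprints.

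**Figure D1:**
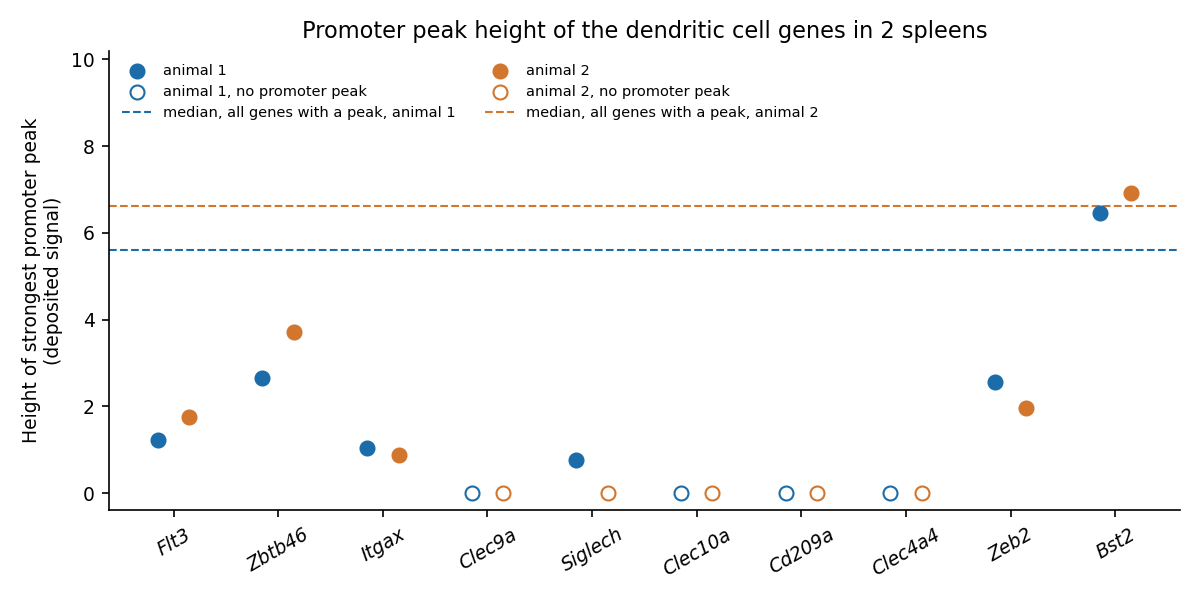
Height of the strongest promoter peak of each gene (deposited signal, vertical axis) in animal 1 and animal 2, with open circles at 0 where no promoter peak was listed and dashed lines at the median of all open genes (animal 1 5.62, animal 2 6.63). Bst2 lies above its animal's line in both animals, Zbtb46, Zeb2, Flt3 and Itgax lie below, and the lectin genes sit at 0 except Siglech in animal 1.

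The sequences below come from the promoter of Bst2, the highest among the 10, and from leading distal sites. These sites include those of the lectin genes and of Flt3, low or without a peak at their own promoters. None is shown for Itgax or Zeb2. For Cd209a the site printed is the lower of its 2 leading distal sites by mean height. The genes differed in the presence and height of peaks, and a link of this to sequence was not tested. The sequences were read from the C57BL/6J reference (RefSeq GRCm38.p6, the assembly of mm10) on the strand of the gene, 5′ to 3′. CAST/EiJ alleles carried by these hybrids may differ from them. Whether any sequence printed here, that of Flt3 included, has copies elsewhere in the genome, whose cuts could be counted at its site, was not tested. Capitals mark the bases that lay under a footprint in both animals. Each is centred on the stretch that the peaks of both animals share and is 180 bp long, except at the promoter. There only the longest stretch of the 180 bp free of annotated untranslated bases is shown.
Bst2 promoter, chr8:71537457-71537580, minus strand: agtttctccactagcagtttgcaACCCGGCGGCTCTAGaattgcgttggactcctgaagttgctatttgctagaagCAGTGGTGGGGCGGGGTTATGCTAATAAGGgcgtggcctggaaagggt
Zbtb46 66.6 kb, chr2:181392701-181392880, minus strand: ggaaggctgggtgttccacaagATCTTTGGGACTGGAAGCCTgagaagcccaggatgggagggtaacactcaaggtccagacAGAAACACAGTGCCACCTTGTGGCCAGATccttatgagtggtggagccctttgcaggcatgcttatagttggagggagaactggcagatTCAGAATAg
Clec9a -42.8 kb, chr6:129365981-129366160, plus strand: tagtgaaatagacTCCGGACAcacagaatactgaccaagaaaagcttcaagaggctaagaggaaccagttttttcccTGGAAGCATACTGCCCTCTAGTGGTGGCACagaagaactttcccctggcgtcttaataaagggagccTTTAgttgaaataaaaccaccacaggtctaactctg
Bst2 15.6 kb, chr8:71521761-71521940, minus strand: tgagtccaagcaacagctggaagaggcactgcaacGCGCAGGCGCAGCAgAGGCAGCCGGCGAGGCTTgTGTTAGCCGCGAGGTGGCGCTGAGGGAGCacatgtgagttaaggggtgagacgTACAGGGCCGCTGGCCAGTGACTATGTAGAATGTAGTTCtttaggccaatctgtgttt
Flt3 68.7 kb, chr5:147331661-147331840, minus strand: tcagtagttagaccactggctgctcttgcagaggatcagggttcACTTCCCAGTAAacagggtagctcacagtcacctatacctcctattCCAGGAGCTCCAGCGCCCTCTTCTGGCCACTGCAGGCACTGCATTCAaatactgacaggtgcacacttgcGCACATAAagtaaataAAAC
Siglech 16.5 kb, chr7:55784621-55784800, plus strand: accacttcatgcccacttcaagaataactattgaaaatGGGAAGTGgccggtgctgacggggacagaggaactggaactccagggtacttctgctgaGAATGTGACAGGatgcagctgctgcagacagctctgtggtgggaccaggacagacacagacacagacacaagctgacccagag
Clec10a 45.6 kb, chr11:70201681-70201860, plus strand: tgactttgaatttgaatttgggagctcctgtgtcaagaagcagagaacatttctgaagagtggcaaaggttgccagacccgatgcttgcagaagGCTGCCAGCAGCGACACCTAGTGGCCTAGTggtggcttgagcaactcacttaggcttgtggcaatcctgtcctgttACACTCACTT
Cd209a -5.5 kb, chr8:3754371-3754550, minus strand: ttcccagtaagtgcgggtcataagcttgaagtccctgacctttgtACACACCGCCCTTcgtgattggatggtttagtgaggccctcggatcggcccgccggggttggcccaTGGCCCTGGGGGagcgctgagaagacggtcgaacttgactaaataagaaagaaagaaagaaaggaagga
Clec4a4 15.4 kb, chr6:123005711-123005890, plus strand: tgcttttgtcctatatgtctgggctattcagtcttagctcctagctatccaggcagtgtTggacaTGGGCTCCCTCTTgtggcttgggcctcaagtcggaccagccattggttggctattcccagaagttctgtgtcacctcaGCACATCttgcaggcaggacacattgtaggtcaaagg

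The number after each name is the distance of the site from the most 5′ TSS of the gene in kb, positive along the direction of transcription. Footprinted bases in both animals numbered 45 of 124 in the promoter stretch of Bst2. Among the distal sites shown they ranged from 20 of 180 bases at Siglech to 100 of 180 at Bst2.

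Zbtb46 encodes a BTB zinc finger factor that in the immune system marks committed conventional dendritic cells. The gene is on the minus strand at chr2:181387762-181459426. Its promoter height was 2.65 in animal 1 and 3.72 in animal 2 (mean ± SD over the pair, 3.19 ± 0.757, n = 2). Both values lie in the lower part of all open promoters, above 28.9% of them in animal 1 and above 33.2% in animal 2. Animal 1 listed 4 promoter peaks at this gene and animal 2 listed 2, the additional ones in animal 1 having heights of 0.408 and 0.516.

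Around Zbtb46 the window held 21 peaks in animal 1 and 14 in animal 2, and all 14 of animal 2 were found in animal 1. The highest distal site lay in an intron of Zbtb46 itself, 66.6 kb downstream of the TSS, with a height of 2.92 in animal 1 and 5.10 in animal 2. It exceeded the promoter in both animals. A second site stood between genes at -32.6 kb, with 2.53 in animal 1 and 3.20 in animal 2. Higher than any of these were the promoters of neighbouring genes: the shared promoter of Arfrp1 and Zgpat had 6.78 in animal 1 and 7.23 in animal 2, and Tpd52l2 had 6.70 and 8.97.

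Zeb2 encodes a zinc finger and homeobox repressor that is required for plasmacytoid cells and conventional type 2 cells, and is also used by other leukocytes. Its span, on the minus strand, is chr2:44983632-45117395 and has 29 annotated TSS. Accessibility was spread over the first 9 kb: 8 promoter peaks in animal 1 and 7 in animal 2 lay within 1 kb of its start sites. The strongest differed between the animals. In animal 1 it was a peak at chr2:45112101-45112320 with a height of 2.56, where animal 2 had 1.58. In animal 2 it was a peak at chr2:45117141-45117340 with a height of 1.97, where animal 1 had 1.37. The gene's promoter height was 2.27 ± 0.421 (SD, n = 2). No distal site of Zeb2 exceeded it in either animal. The highest, 8.6 kb into the gene and in an exon, had 1.06 in animal 1 and 1.45 in animal 2. It lay 1295 bp past the nearest TSS, just outside the promoter distance. No other protein-coding gene lies in the window of Zeb2.

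Flt3 encodes the receptor tyrosine kinase for Flt3 ligand, which progenitors need to become dendritic cells. The minus-strand gene spans chr5:147330741-147400489. Its promoter peak at chr5:147400261-147400440 was low, with 1.23 in animal 1 and 1.74 in animal 2 (mean ± SD over the pair, 1.49 ± 0.363, n = 2). That is above 18.1% of open promoters in animal 1 and above 21.2% in animal 2. Accessibility was higher inside and beyond the gene. Of its 17 distal sites found in both animals, 5 were higher than the promoter in both.

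The highest of these lay in an intron 68.7 kb downstream of the TSS, near the end of the gene, with 3.36 in animal 1 and 5.12 in animal 2. Another stood just past the gene, at 76.8 kb, with 2.44 in animal 1 and 3.74 in animal 2. Sites in exons at 37.3 kb and 59.3 kb had 3.42 and 3.09 in animal 1, and 2.43 each in animal 2. The exonic site at 37.3 kb was the highest in animal 1 and the intronic site at 68.7 kb in animal 2, so the order of the sites is not the same in the 2 animals. The window also holds the promoter of Pan3, its highest peak, with 8.72 in animal 1 and 11.5 in animal 2. In all, Flt3 had 24 peaks in animal 1 and 26 in animal 2. Per 100 kb this was 14.1 and 15.3, above 88.4% and 90.7% of all protein-coding genes.

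**Figure D2:**
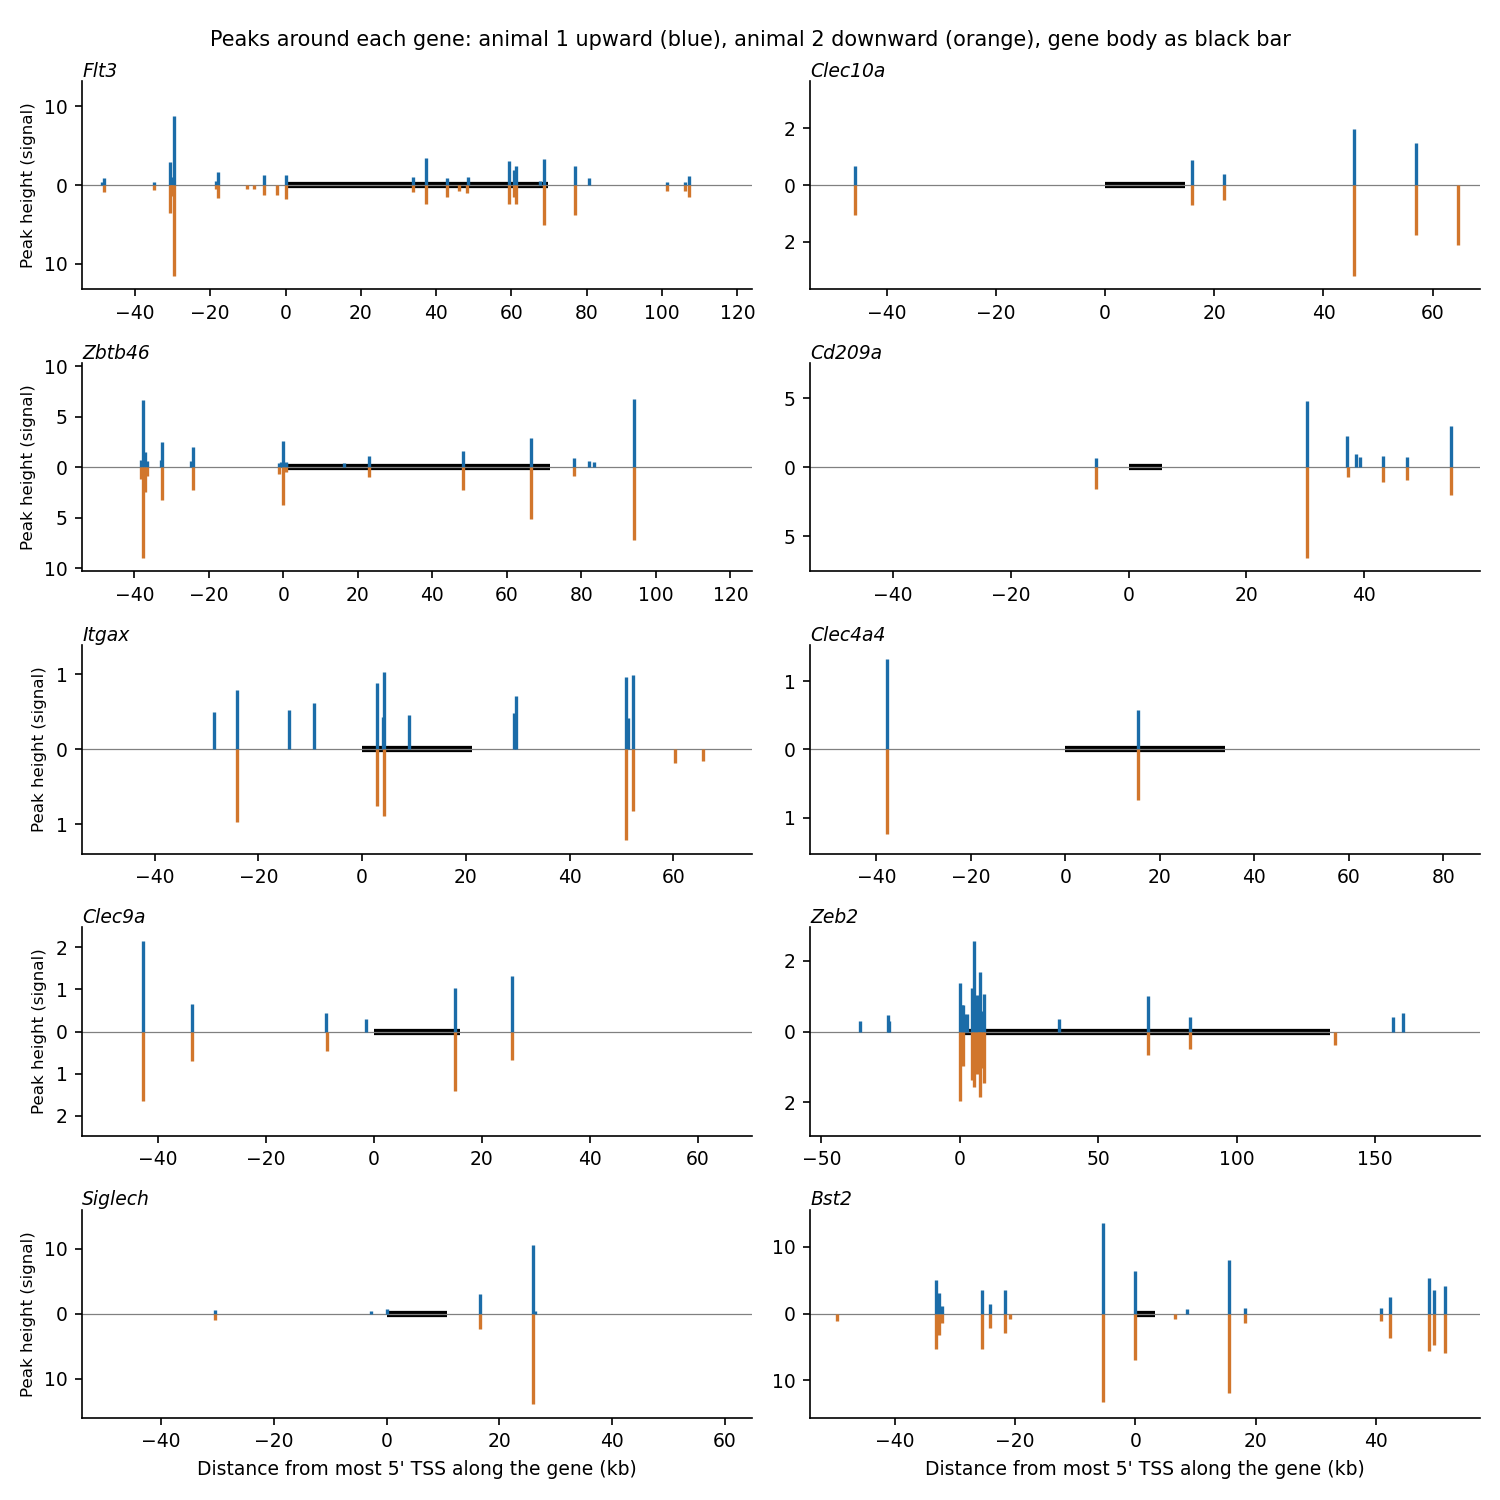
Height of every peak (deposited signal) against its distance in kb from the most 5′ TSS of the gene, along the direction of transcription, one panel per gene, with animal 1 drawn upward, animal 2 downward and the gene body as a black bar. The peaks of Zeb2 crowd into the first 9 kb, those of Flt3 stand along the gene and beyond its end, and Clec4a4 has a single peak inside its body and 1 at the gene upstream.

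Itgax encodes integrin alpha X, the CD11c protein used to identify dendritic cells, which some macrophages and other leukocytes carry too. The plus-strand gene spans chr7:128129547-128150657. No peak lay within 1 kb of its most 5′ TSS. Its promoter peak, at chr7:128133701-128133960 in animal 1, was counted for an internal TSS. Its midpoint was at -975 bp from that TSS in animal 1 and at -996 bp in animal 2, at the edge of the distance allowed. The height was 1.03 in animal 1 and 0.883 in animal 2 (mean ± SD over the pair, 0.957 ± 0.105, n = 2). With a promoter of 500 bp, or with the most 5′ TSS alone, Itgax had no promoter peak.

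The other peaks around Itgax were as low. The highest distal sites, in introns of its neighbour Itgad, had 0.960 and 0.988 in animal 1 and 1.21 and 0.828 in animal 2. Those found in both animals were 5 of the 13 peaks in animal 1 and 5 of the 7 in animal 2. This is the window with the largest part of its sites in animal 1 only, 8 of 15.

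Clec9a encodes the lectin DNGR-1, by which conventional type 1 cells sense actin of dead cells. Its span, on the plus strand, is chr6:129408862-129424763. Neither a peak nor a listed cut-rate interval nor a footprint fell within 1 kb of its 3 TSS in either animal. The deposited cut-rate lists hold the intervals with a false discovery rate under 0.05, and 34.6% of all genes had none near a TSS in either animal. The same was true of Clec10a, Cd209a and Clec4a4. The peak nearest to a TSS of Clec9a had its midpoint at -1410 bp and was low, 0.301, and only animal 1 listed it. Among the genes with no promoter peak this is the value nearest outside the distance used, as that of Itgax is the nearest inside.

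The highest peak in the Clec9a window was a distal site at -42.8 kb from the TSS, between genes, with 2.15 in animal 1 and 1.64 in animal 2. Inside the gene, an exonic site at 15.0 kb had 1.04 in animal 1 and 1.42 in animal 2. All 5 peaks of animal 2 in this window were found in animal 1, which had 6.

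Siglech encodes a sialic acid binding lectin of the immunoglobulin family that marks mouse plasmacytoid cells. The gene is on the plus strand at chr7:55768178-55778925. Animal 1 listed a peak over its TSS, at chr7:55768061-55768317, with a height of 0.766, 107 steps, 2 footprints and a best false discovery rate of 0.000325. Animal 2 listed no peak, no interval and no footprint within 1 kb. The leading distal site lay between genes, 16.5 kb downstream of the TSS and past the end of the gene, with 2.97 in animal 1 and 2.43 in animal 2. It was higher than the promoter peak of animal 1, and it is the nearest peak to the gene in animal 2. The highest peak of the window was the promoter of Tubgcp5, with 10.6 in animal 1 and 13.9 in animal 2.

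Clec10a encodes a galactose-binding macrophage lectin that conventional type 2 cells carry as well. Clec10a is on the plus strand at chr11:70156197-70170834. It has 10 annotated TSS, with no promoter peak at any of them. Its nearest peak lay beyond the gene's end, 15.9 kb past the most 5′ TSS and 2.6 kb past the nearest TSS. That peak had 0.903 in animal 1 and 0.699 in animal 2. The highest peak of its window was a distal site at 45.6 kb, with 1.99 in animal 1 and 3.19 in animal 2. The neighbouring promoter of Slc16a11 had 1.48 and 1.74. A peak at the promoter of Slc16a13, which crosses the end of the window, was listed in animal 2 with 2.12. Animal 1 listed no peak over it, but its cut-rate list covers the 114 bp inside the window, with a best false discovery rate of 1.37e-07.

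Cd209a encodes a mouse homologue of DC-SIGN, a lectin that binds mannose-rich glycans. Cd209a is on the minus strand at chr8:3743397-3748984. Its nearest peak stood at -5.5 kb, upstream of the TSS, with 0.702 in animal 1 and 1.59 in animal 2. Whether the sequence printed for this peak has copies elsewhere in the genome, whose cuts could be counted here, was not tested. Its height and footprints are given with that limit. By mean height it stood below the distal site in Clec4g described next, whose sequence is not shown. The largest log2 ratio between the animals at any matched site, 1.66, was also in this window, in an intron of Clec4g 37.1 kb downstream, where animal 1 had 2.23 and animal 2 had 0.706. The promoter of Clec4g, a liver and lymph node lectin, was the highest peak with 4.83 and 6.56. That of Fcer2a, the low-affinity IgE receptor CD23 of mature B cells, followed with 2.99 in animal 1 and 2.02 in animal 2.

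Clec4a4 encodes DCIR2, the antigen of the 33D1 antibody on conventional type 2 cells of the spleen. Clec4a4 is on the plus strand at chr6:122990367-123024105. It had the fewest peaks of the 10 genes, 2 in each animal. One lay in an intron of Clec4a4, 15.4 kb downstream of the TSS, with 0.573 in animal 1 and 0.733 in animal 2. The other was the promoter of the related lectin gene Clec4a3, at -37.8 kb, with 1.33 in animal 1 and 1.24 in animal 2. Per 100 kb this was 1.5 peaks in each animal, above 21.8% of all genes in animal 1 and 21.6% in animal 2.

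Bst2 encodes tetherin, an interferon-inducible protein that holds budding viruses at the cell surface. In resting mice its antibody PDCA-1 is used for plasmacytoid cells, and many other cells gain it under interferon. Bst2 is on the minus strand at chr8:71534255-71537456. Its promoter peak at chr8:71537401-71537600 was the highest of the 10 genes, with 6.45 in animal 1 and 6.91 in animal 2 (mean ± SD over the pair, 6.68 ± 0.324, n = 2). Of the 10 promoters it alone reached the median of all open promoters, above 55.5% of them in animal 1 and 51.6% in animal 2. The best false discovery rate in it was 4.26e-49 in animal 1 and 4.26e-41 in animal 2. A match to the GC box letters GGGCGG in the printed stretch lay wholly under footprints of both animals. Such matches are common: 43.6% of all promoter peaks in animal 1 and 46.2% in animal 2 hold one in 180 bp at their centre.

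The window of Bst2 is dense in genes, with 8 other coding genes, and in peaks, with 16 in animal 1 and 18 in animal 2. The promoter of Mvb12a, at -5.4 kb, was the highest, with 13.6 and 13.3. A distal site in an exon of Ccdc194, 15.6 kb downstream, had 7.99 in animal 1 and 11.8 in animal 2 and was the highest distal site of all 10 genes. The next, in an intron of Nxnl1 at -25.5 kb, had 3.51 in animal 1 and 5.36 in animal 2.

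**Figure D3:**
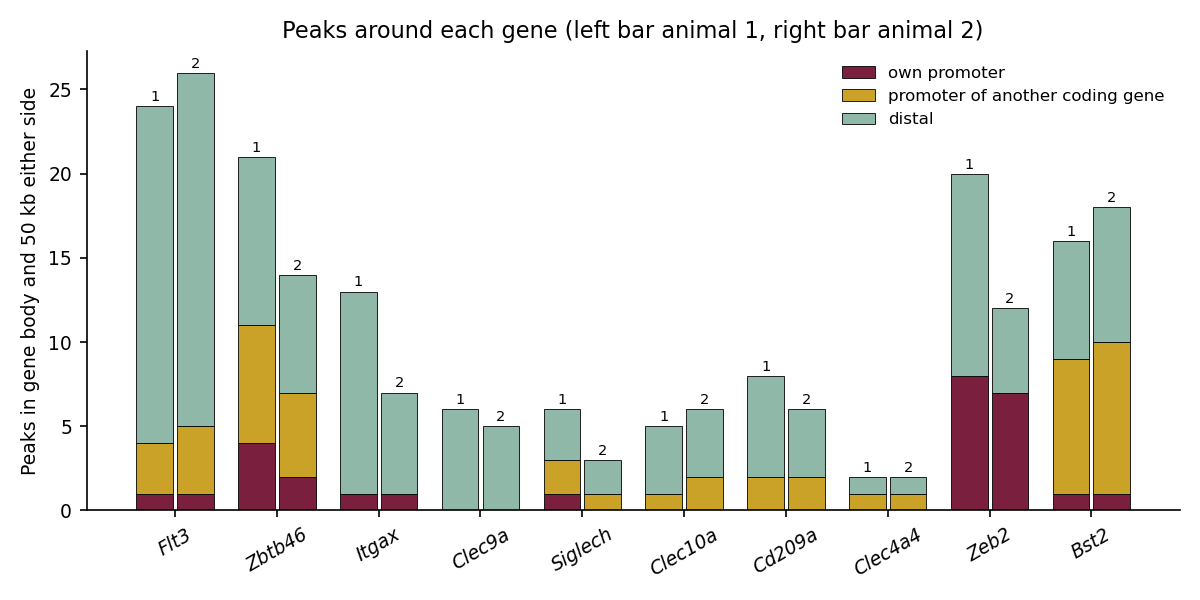
Number of peaks in the gene body and the 50 kb on either side of each gene (vertical axis), animal 1 on the left and animal 2 on the right of each pair, divided into the gene's own promoter, promoters of other coding genes and distal peaks. Flt3 has the most (24 in animal 1 and 26 in animal 2) and Clec4a4 the fewest (2 in each).

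Taking the windows as a whole, 121 peaks in animal 1 and 99 in animal 2 lay around the 10 genes. Own promoters held 16 and 12 of them, promoters of other coding genes 24 in each animal, and 81 and 63 were distal. Median heights were 0.910 in animal 1 and 1.32 in animal 2, beside 0.888 and 1.05 for all peaks of the lists. The promoters of neighbours were the strongest class, with a median of 3.05 in each animal, against 1.04 and 1.48 at own promoters and 0.766 and 1.02 at distal peaks. At 6 genes the highest peak of the window was the promoter of another gene in both animals. Only Zeb2, whose window holds no other coding gene, had it at its own promoter in both. For Clec9a and Clec10a it was distal in both, and for Itgax it was the own promoter in animal 1 and a distal site in animal 2. The same count was not made over all genes, so these numbers have no background.

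Per 100 kb, the median over the 10 genes was 8.07 peaks in animal 1 and 5.46 in animal 2, beside 5.62 and 5.38 over all protein-coding genes. Bst2, Flt3 and Zbtb46 stood above the median of all genes in both animals, Clec9a, Siglech, Clec10a and Clec4a4 below it in both. Itgax and Cd209a were above it in both animals and Zeb2 in animal 1 only.

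Peaks of the same site in both animals could be joined into 132 sites, of which 87 were found in both, 34 in animal 1 only and 11 in animal 2 only. As a share of peaks, 71.9% of those in animal 1 and 88.9% of those in animal 2 overlapped a peak of the other animal, beside 76.5% and 79.0% over all peaks. Weighted to the same deciles of height, all peaks gave 80.3% and 87.7%. Sites listed in a single animal were lower, with median heights of 0.498 in animal 1 and 0.740 in animal 2, than peaks found in both, with 1.23 and 1.43. Of the 34 in animal 1 only, 4 overlapped an interval of the other animal's cut-rate list, and of the 11 in animal 2 only, 2 did.

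Distal sites found in both animals numbered 54, of which 38 belonged to the 5 genes open at the promoter in each animal and 16 to the 5 others. Flt3 alone had 17 of the 38. The windows of the open genes were 103 to 234 kb long and those of the others 106 to 134 kb. These counts are not scaled to length, and the same split was not made over all genes. By position, 13 of the 54 lay in an intron of the gene itself, 5 in its exons, 13 in another gene and 23 between genes. A footprint was present in each animal at 51 of the 54 and in neither at 2, those being in introns of Flt3 and Zeb2. Counted per animal over peaks of every class, 85.1% in animal 1 and 90.9% in animal 2 held a footprint around these genes. Over all peaks of the lists, 81.2% and 83.3% did.

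Heights at matched peaks were compared as the log2 ratio of animal 1 over animal 2. Over the 86 peaks matched 1 to 1 around the 10 genes, the median was -0.27 with an SD across peaks of 0.47, and 25 were higher in animal 1 and 61 in animal 2. All 58277 matched peaks of the genome gave -0.23 with an SD of 0.41, which is close to the value at these genes. Of those, 16555 were higher in animal 1 and 41722 in animal 2. At 12 matched own promoter peaks the median was -0.15 and at 54 distal ones -0.34. Only Itgax had a positive median, 0.22 over 5 peaks. This compares 2 libraries of 1 group and carries no test.

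**Figure D4:**
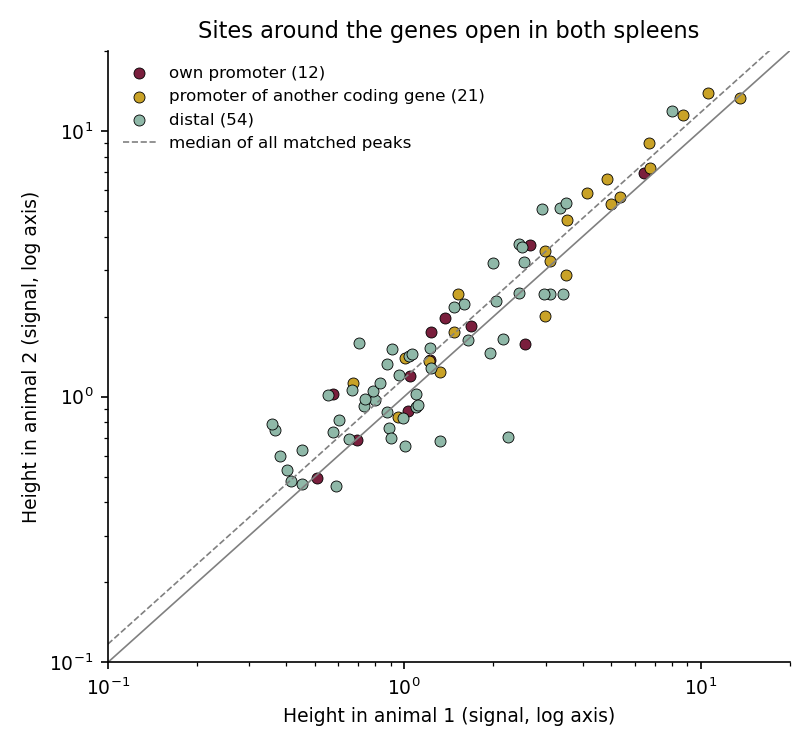
Height in animal 2 against height in animal 1 (deposited signal, log axes) for the 87 sites found in both, by class, with the line of equal height and a dashed line at the median of all matched peaks of the genome. Most sites lie above the line of equal height, 62 higher in animal 2 and 25 in animal 1, and the point far below it at 2.23 and 0.706 is the site in Clec4g. Of all matched peaks of the genome, 41722 were higher in animal 2 and 16555 in animal 1.

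Inside the peaks lay 286 footprints in animal 1 and 256 in animal 2, or 2.36 and 2.59 per peak, beside 2.23 and 2.27 over all peaks and 2.29 and 2.50 once these are weighted to the same deciles of height. Known motifs were looked for in each footprint widened by 5 bp on each side, on both strands. Most shares were near those of all footprints in peaks. The GC box GGGCGG was in 8.74% of footprints at these genes in animal 1 and 11.3% in animal 2, beside 8.45% and 9.0% overall. The KLF letters CACCC were in 8.39% and 8.59%, beside 7.88% and 8.50%. For the RUNX letters TGTGGT the shares were 3.15% and 1.17%, beside 2.27% and 2.07%, and for the PU.1 letters GAGGAA 2.80% and 1.17%, beside 2.36% and 2.03%.

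The E-box CANNTG was in 6.64% of the footprints in animal 1 and 5.47% in animal 2, beside 9.92% and 10.8% overall. Its variant CAGCTG, which is counted within it, was in 1.40% and 0.781%, beside 1.40% and 1.55%. The interferon response element, GAAA and GAAA with 2 bases between, was in no footprint of animal 1 and in 1 of animal 2. The composite ETS and IRF element, GGAA and GAAA with 2 bases between, was in 2 of animal 1 and none of animal 2. These last counts are too few to compare with the shares over all footprints, which were 0.302% and 0.206% for the first element and 0.285% and 0.184% for the second. The AP-1 letters TGANTCA were in 1 footprint of each animal, or 0.350% and 0.391%, beside 0.420% and 0.386% overall. The STAT letters, TTC and GAA with 3 bases between, and the GATA letters AGATAA were in none, with 0.377% and 0.361% of all footprints for STAT and 0.299% and 0.289% for GATA. The CRE letters TGACG were in 2.80% and 2.73% beside 2.98% and 2.85%, the NF-Y letters CCAAT in 3.15% and 4.30% beside 2.99% and 3.40%, and NF-kB, GGGA and CC with 4 bases between, in 1.05% and 3.13% beside 1.37% and 1.62%. The CTCF core, searched only in the spelling with C at its 4th base, was in 1.75% and 2.34% beside 2.76% and 3.02%. All of these shares leave out the spelling with G at that base.

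Among the 19 leading distal sites, up to 2 per gene, these CTCF letters were matched at 3. Each match lay wholly under footprints of both animals. They are the sites printed above for Zbtb46 at 66.6 kb, Clec9a at -42.8 kb and Bst2 at 15.6 kb. Of all non-promoter peaks, 9.49% in animal 1 and 9.95% in animal 2 hold a match in 180 bp at their centre, so 3 of 19 is a small count to set beside them. The letters searched have C at the 4th base of the core, and the background shares use this spelling too. Other spellings of the CTCF core were not searched, so a site without these letters may still hold one. The sites Flt3 68.7 kb, Flt3 76.8 kb and Clec10a -45.9 kb hold the same form with G at that base. In each it lies wholly under footprints of both animals and was not counted. The count of 3 of 19 is therefore that of 1 spelling, not of all CTCF cores. PU.1 letters were in 6 of the 19 sites, beside 27.2% and 24.4% of non-promoter peaks, and no match touched footprints of both animals. RUNX letters were in 6 as well, beside 19.9% and 18.7%, and 2 of these touched footprints of both animals, at Flt3 76.8 kb and at Siglech -30.4 kb. At Flt3 76.8 kb only 3 bases of the match lay under footprints of both animals, while at Siglech -30.4 kb all 6 did. NF-Y letters were in 8 of the 19 sites, or 42.1%, beside 18.2% and 18.0% of non-promoter peaks, and those at 1 site, Zbtb46 -32.6 kb, touched footprints of both animals. The E-box was in 11, or 57.9%, beside 68.6% and 68.8%, with 4 touching footprints of both. KLF letters were in 9, or 47.4%, beside 43.4% and 45.6%, with 3 doing so. Each of the other motifs was in 3 sites or fewer. A match shows only that the letters are there.

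Other genes of the dendritic cell programme were described from lists drawn up for each role, beside the background of 59.8%. Of 16 regulators of dendritic cell development, 15 were open at the promoter in both animals. Their median height was 6.75, where that of the 5 open genes described here was 2.27. The highest were Relb, an NF-kB subunit, with 14.5 ± 1.26, Id2, an inhibitor of E proteins, with 12.5 ± 3.88, and Notch2, a receptor needed by splenic type 2 cells, with 9.24 ± 0.597 (SD, n = 2 each). Zfp366, the repressor DC-SCRIPT, had no promoter peak in either animal. Most of these regulators act in lymphocytes too.

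Among 9 further genes of conventional type 1 cells, 6 were open in both animals, led by Cd24a with 7.33 ± 0.447, Naaa, a lipid amidase, with 7.20 ± 0.393, and Wdfy4, needed for cross-presentation, with 5.03 ± 0.861. The chemokine receptor gene Xcr1, the integrin gene Itgae and Ifi205 had no promoter peak in either. Of 7 type 2 genes 4 were open in both, all low: Sirpa, the receptor for CD47, had 1.40 ± 0.179, Clec12a 1.05 ± 0.286 and Csf2rb 0.993 ± 0.166. Clec4a2 and Mgl2, lectin genes of the same families as Clec4a4 and Clec10a, had none in either animal.

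Of 9 plasmacytoid genes 7 were open in both, led by the phosphatase gene Ptprs with 7.93 ± 0.430, Tlr9, a sensor of CpG DNA, with 3.63 ± 0.547, and Pacsin1 with 2.27 ± 0.259. Klra17 and Cox6a2 had no promoter peak in either animal. Of 9 genes of mature dendritic cells 6 were open in both, led by Cd83 with 6.24 ± 1.62, Ccr7, the receptor that guides cells to T cell zones, with 5.45 ± 1.61, and Cd40 with 5.11 ± 0.201. The chemokine genes Ccl22 and Ccl17 had none.

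Markers of the other cells of the spleen give the setting of these values. All 6 B cell markers were open at the promoter in both mice, with mean heights from 4.16 to 12.4 and a median of 9.23, and so were 5 of 6 T cell markers, with a median of 1.69. For macrophages it was 3 of 7, none above 0.986, for monocytes 0 of 4, for neutrophils 1 of 4, for natural killer cells 2 of 4, for plasma cells 2 of 4 and for erythroid cells 1 of 4. Several of the dendritic cell genes are used by these cells too, and the part of each cell type in a peak was not tested.

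**Figure D5:**
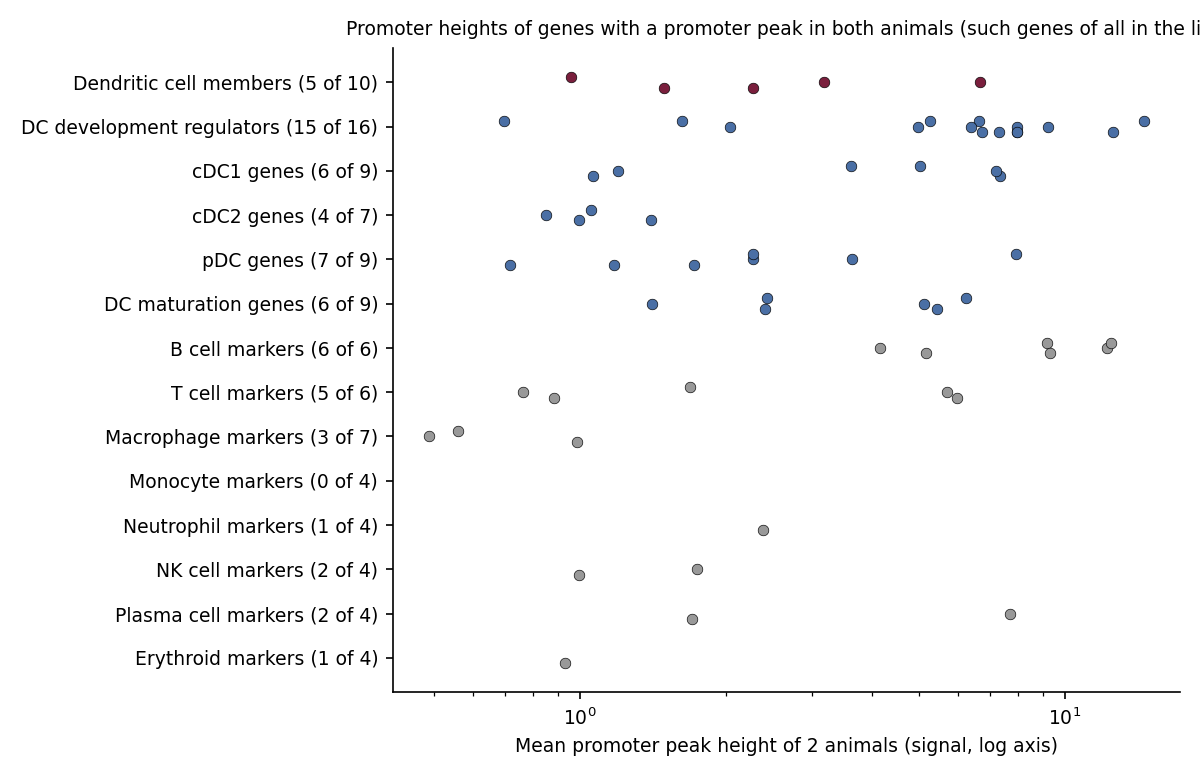
Mean promoter peak height of the 2 animals (deposited signal, log axis) for each gene open at the promoter in both, by list, with the number of such genes and of all genes in the list beside its name. The 5 open dendritic cell genes lie between 0.957 and 6.68, and the B cell markers between 4.16 and 12.4.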

How the data were processed

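DNase-seq libraries of 2 spleens were analysed, 1 per animal and 1 group in all. Per the labels the coordinates are mm10, and per the deposited listings no reads were pooled between the animals. No aligner or caller is named in the sources used here. Of the peak lists the authors deposited, 2 per library, the longer was used. Its heights are a signal with no stated unit. Cut-rate intervals carry a deposited false discovery rate (q-value), always under 0.05. Footprints were deposited as positions, all with 0.01 in the p-value column.

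The 10 genes, the other gene lists and the motifs were chosen with earlier results of these data known, so no list was tested. All peaks, footprints and 21938 protein-coding genes of GENCODE M21 were processed alike with Python 3.11.15, pandas 2.3.3, pysam 0.24.0 and bedtools 2.31.1. No interval passed a chromosome end in GRCm38.p6. The strongest peak within 1 kb of any TSS gave a gene its promoter height, and a peak can count for 2 genes. Peaks were found in both animals when they overlapped by 1 bp or more, and a footprint had to lie wholly inside a peak. Heights were compared as deposited. The overlap code was tested on simulated intervals.

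Beside the 10 genes, those named are the 3 highest promoters of each dendritic cell list and up to 3 with none, neighbours whose promoter was among the 3 highest peaks of a window, and the 2 highest distal sites per gene found in both animals. The further sites given for Zeb2, Flt3, Clec9a and Clec10a were chosen after their values were seen. If a height step is 1 cut and heights are scaled per M cuts, the depth was 139.6 M and 147.3 M cuts. Counting error was not modelled, since these totals are inferred. Alternatives covered the peak list, promoter distance, TSS set, window, height cut-off, overlap rule, scaling and leaving out each animal.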

Additional observations from a re-analysis of the deposited data

How the results depend on the processing

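The number of genes with a promoter peak in both animals was 5 with the shorter peak list or a promoter of 2 kb, and 4 with a promoter of 500 bp, with the most 5′ TSS alone or with the higher 50% of peaks. Itgax was the gene lost in each of these. The last setting moved the median promoter height to 2.73, against 2.27. Zeb2 had 1.83 with a promoter of 500 bp and 1.67 with the most 5′ TSS alone. Peaks per animal, 110 on average, numbered 61 with the higher 50% of peaks, 60 with flanks of 20 kb, 200.5 with 100 kb and 72 without peaks at promoters. Footprints, 271 on average, numbered 129.5 with 20 kb and 510.5 with 100 kb, since the window is smaller or larger. The log2 ratio of matched heights, -0.27, was -0.083 once heights were divided by the median matched height of each animal. The other 30 values recomputed for these counts, shares and medians stayed within 1.5 times or 1 SD. Leaving out each animal in turn gave 5 to 6 genes, 99 to 121 peaks, 71.9% to 88.9% found in the other animal and 256 to 286 footprints. No paired analysis was possible because there is 1 group.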
